A study of Mus musculus with 8 samples.

Results

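Potassium channel genes and the genes for the sulfonylurea receptors were examined in bulk RNA sequencing of mouse pancreatic islets. Members were all genes of the expression table whose symbol starts with Kcn, plus Abcc8 and Abcc9, and 73 of the 15985 gene symbols met this rule. The 4 animals labelled knockout were Ins-Cre;Sox9fl/fl, so that a Cre recombinase driven by an insulin promoter was combined with a pair of floxed Sox9 alleles. The 4 controls carried no Cre, and their genotypes were Sox9fl/fl in control 1, Sox9fl/+ in control 2, Sox9+/+ in control 3 and Sox9+/fl in control 4. All animals were males of mixed strain aged 13 to 16 months, and each library came from the islets of 1 animal as the study describes it. Effects of carrying Cre and of losing Sox9 cannot be told apart in this design. Sox9 itself had a normalized value of 21.8 ± 11.4 in controls and 21.3 ± 10.8 in knockouts (SD, n = 4), so the transcript level did not check the labels, and "knockout" below means a library labelled so.

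In a beta cell, potassium channels hold the membrane at a negative potential at rest. The KATP channel, made of pore subunits of the Kir6 type and sulfonylurea receptors, closes when glucose metabolism raises the ratio of ATP to ADP, after which the membrane depolarizes, voltage-gated calcium channels open and insulin granules fuse. Voltage-gated, calcium-activated and tandem-pore-domain potassium channels then shape, end or limit this electrical activity. Bulk islet RNA mixes beta cells with alpha, delta, vascular and exocrine cells, and fewer cells of a type cannot be told apart from less RNA per cell.

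All values below are the authors' normalized values, which are estimated reads of a gene divided by a size factor of the library. Estimated depth was between 13.1 and 26.1 M reads in controls and between 11 and 19.1 M in knockouts, and 1 read corresponded to a normalized value between 0.658 and 1.37. The insulin gene Ins2 accounted for 20.6% to 28.6% of all signal, depending on the library. The 73 members together took between 0.15% and 0.178%. Their control means were above 10 for 65 members and above 100 for 29 members, and all 73 passed the filter on low values. Of 98 genes listed for these families, 25 were not analysed here, among them Kcnmb4, Kcnt1, Kcnt2, Kcne1, Kcne2 and the antisense gene Kcnq1ot1.

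A pair of promoters is shown because they belong to the member with the smallest p-value and to a member lower in knockouts whose promoter held one of 3 motifs searched. They are RefSeq promoters on GRCm38.p6, 250 bases before to 50 bases after the annotated start, printed 5′ to 3′ on the gene's strand, and capitals mark a motif match on either strand. Kcnh6 lies on the plus strand of chromosome 11 (promoter chr11:106007898-106008197) and Kcnip3 on the minus strand of chromosome 2, where the first of its 3 promoters is shown (chr2:127522045-127522344).
Kcnh6: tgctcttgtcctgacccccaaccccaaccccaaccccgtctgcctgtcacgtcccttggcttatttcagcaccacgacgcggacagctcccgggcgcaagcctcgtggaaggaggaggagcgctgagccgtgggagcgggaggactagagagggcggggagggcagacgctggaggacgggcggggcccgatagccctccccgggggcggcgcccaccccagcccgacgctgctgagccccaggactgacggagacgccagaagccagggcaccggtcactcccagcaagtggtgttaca
Kcnip3: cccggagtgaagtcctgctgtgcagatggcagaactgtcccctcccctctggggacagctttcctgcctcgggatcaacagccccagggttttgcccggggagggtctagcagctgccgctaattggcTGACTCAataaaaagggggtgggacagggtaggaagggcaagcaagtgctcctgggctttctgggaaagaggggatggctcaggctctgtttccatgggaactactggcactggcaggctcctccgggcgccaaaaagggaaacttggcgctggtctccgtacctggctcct
The motifs were the SOX core AACAAT, the AP-1 motif TGANTCA and the cyclic AMP response element TGACGTCA. No 2 of them overlapped in a printed promoter. The Kcnh6 window, with a GC content of 69.3%, held none of these letters, and the Kcnip3 window held the AP-1 letters 122 bases before the start. The Kcnip3 promoters not shown held none of the 3 motifs. RefSeq promoters were found for 54 of the 73 members, which had 77 promoters. AACAAT stood in 5 of these 77 (6.49%) against 10.7% of all 32851 promoters, TGANTCA in 3 (3.9%) against 7.81%, and TGACGTCA in 0 against 1.79%. A match is a run of letters and not a binding site.

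Levels differed widely between members, and 2 genes took more of the signal than any others. Kcnk16, the tandem-pore-domain channel TALK-1 that is enriched in islets, reached 7195, 5227, 4413 and 6729 (normalized values) in the 4 controls. Abcc8, which encodes the sulfonylurea receptor SUR1, had 5507, 5726, 5746 and 6241. Kcnk16 made up between 17.5% and 23.2% of the member sum of a library, Abcc8 between 17.1% and 26.4%. The 15 members with the highest control means, not divided by length, took between 84.2% and 86.9%.

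Reads scale with transcript length, so levels were compared between genes only per kilobase (kb). Per kb of the longest annotated transcript, controls had 2769.7 for Kcnk16, 1190.3 for Abcc8, 721 for Kcnmb2, 372 for Kcnip1, 305 for Kcnk1, 244 for Kcnh6, 191 for Kcnk12, 190.4 for Kcnn3 and 122 for Kcnj11. The ranges over the 4 controls were apart between Kcnk16 and Abcc8, between Abcc8 and Kcnmb2 and between Kcnmb2 and Kcnip1, and each later gene named in this order overlapped the next. Per kb of the median protein-coding transcript, the length chosen for the main order, Abcc8 came first with 9215, Kcnk16 second with 3872, Kcnj11 sixth with 544 and Kcnh6 ninth with 266. This length is short for some genes with annotated fragments, 630 bases for Abcc8 and 705.5 bases for Kcnj11 against 4877 and 3142 bases for their longest transcripts, so the rank of Kcnj11 among the members was 6, 11 or, per kb of the union of exons, 13. Kcnh6 ranked 9, 6 and 6 by the same lengths.

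**Figure D1:**
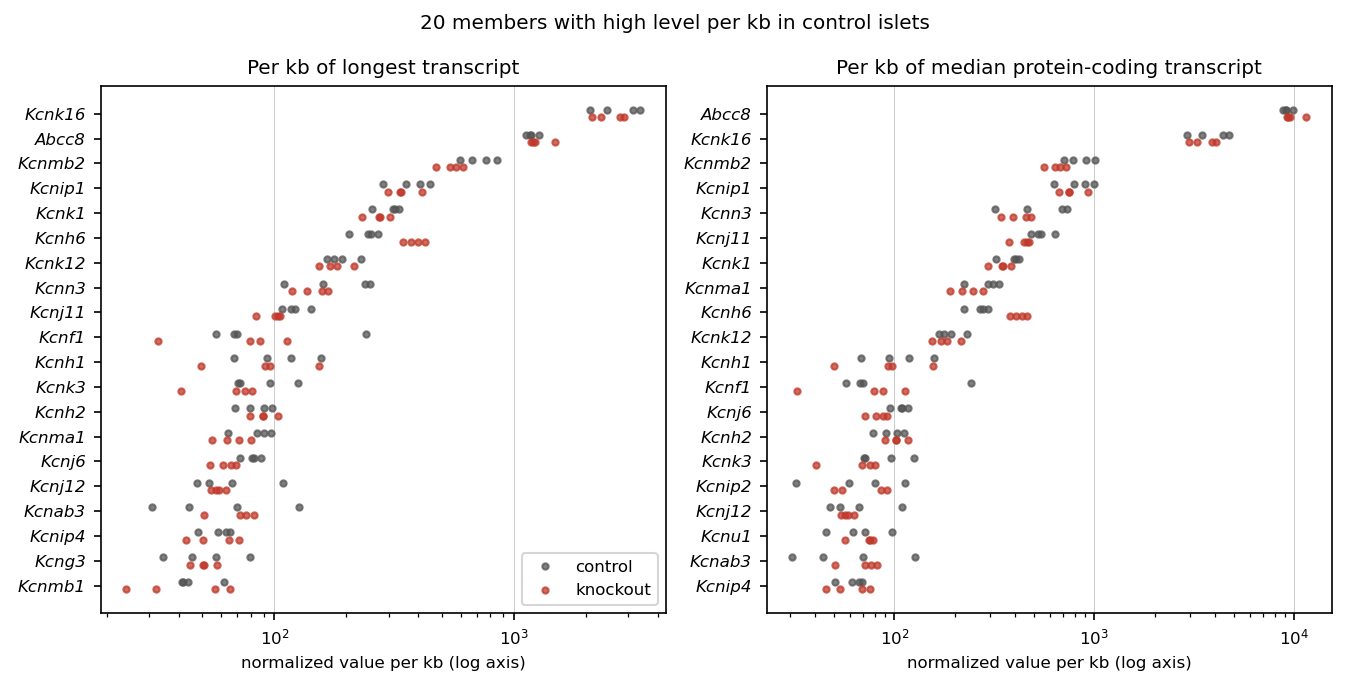
Normalized value per kb (log axis) of 20 members with a high control mean, per kb of the longest transcript (left) and of the median protein-coding transcript (right); each point is 1 of 4 control (grey) or 4 knockout (red) islet samples. Kcnk16 and Abcc8 stood above all other members by either length, and the knockout points of Kcnh6 lay to the right of its control points.

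Beyond these leading genes, the order held members of each family. Kcnmb2 and Kcnip1, which came next by either length, are accessory subunits, of the large-conductance calcium-activated channel and of Kv4 channels respectively. Kcnma1, the pore of that large-conductance channel, had 83.9 per kb of its longest transcript, and the Kv4 pore genes Kcnd1 and Kcnd2 had 11.6 and 5.32, all below the accessory genes on the same scale. The level of Kcnma1 depended on the length, with rank 16 by the longest transcript and rank 8 by the median one. Per kb of the median protein-coding transcript it had 290, against 849 for Kcnmb2. Kcnb2, a delayed rectifier pore gene, had 22.3 per kb of its longest transcript.

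Comparison of the groups asked whether the expression of any member differed between islets of control animals and of animals labelled knockout. No member passed limma's test at an adjusted p below 0.05 over the 15960 genes tested, where 9 genes did (0.0564%). At an unadjusted p below 0.05, 3 members were higher in knockouts (Kcnh6, Abcc9 and Kcnn2, 4.11% of 73) against 4.34% of all genes tested, and 5 were lower (among them Kcnip3, Kcnj6, Kcnmb2 and Kcnj11, 6.85%) against 6.34%. Both shares were close to those of all genes. The 4 and 4 values did not overlap for 2 members higher in knockouts, Kcnh6 and Abcc9 (2.74% against 2.67% of all genes), and for 3 lower members, among them Kcnj11 and Kcnj6 (4.11% against 3.68%). The median log2 fold change was -0.06 over the members and -0.03 over all genes tested, and 40 of 73 members had a negative value (54.8% against 55.1%). Under a Wald rule rebuilt from the deposited variance terms, which called 189 of 15923 genes (1.19%), Kcnh6 was the only member called (adjusted p = 4.5e-05). The higher count was 1 without control 4 and without knockout 3, against 707 of 15943 and 558 of 15944 genes tested. The lower count was 8 without knockout 2 and without knockout 4, against 903 of 15948 and 761 of 15947 genes tested.

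**Figure D2:**
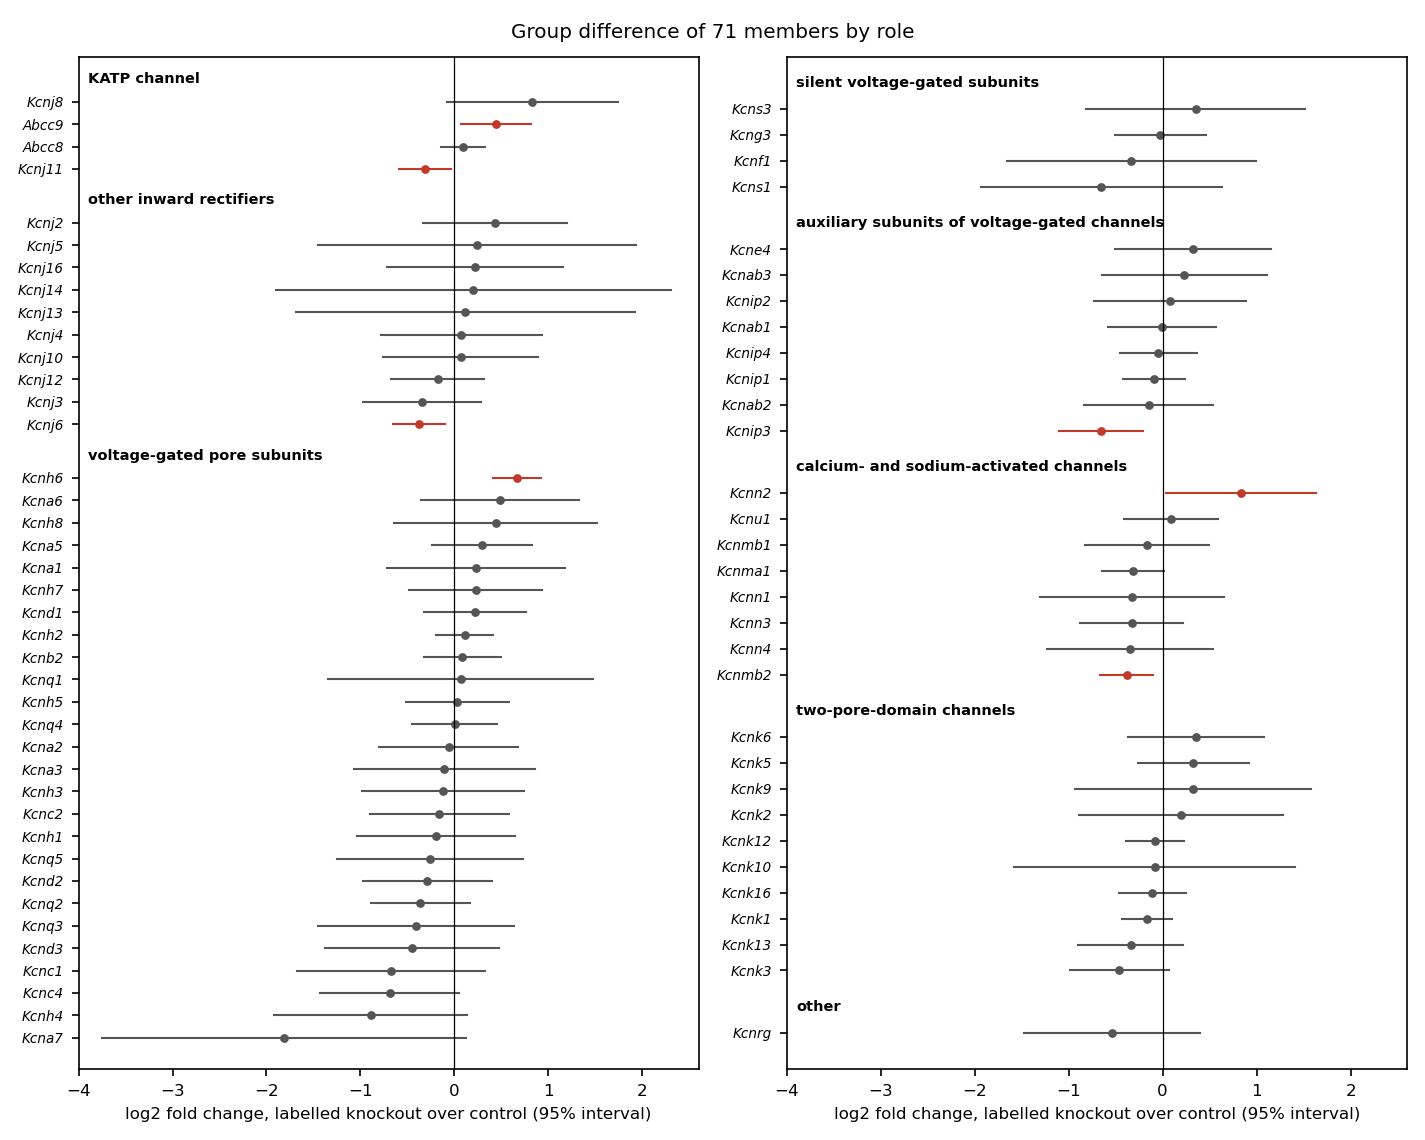
Log2 fold change (knockout over control, x axis) of 71 of the 73 members with the 95% interval from limma, ordered within 8 roles; red marks an unadjusted p below 0.05. The 7 red members fall in 5 of the 8 roles, 3 to the right of 0 and 4 to the left.

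Kcnh6, a voltage-gated channel gene of the ether-a-go-go-related (ERG) family, showed the smallest p of all members. Its normalized values were 855, 690.1, 829 and 912 in controls 1 to 4 and 1248, 1164, 1428 and 1346 in knockouts 1 to 4. Each knockout value lay above the highest control value. The means were 822 ± 94.2 and 1297 ± 115 (SD, n = 4), and the log2 fold change was 0.66 (SE 0.12, 95% interval 0.41 to 0.92, limma, adjusted p = 0.0768), or 1.58-fold. With 1 sample left out at a time the log2 fold change stayed between 0.58 and 0.71, with adjusted p between 0.0774 and 0.266. The gene lies at chromosome 11, 106008124 to 106034549 (GRCm38, plus strand).

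Some other genes moved with the same groups, and their part in the Kcnh6 difference was not tested. All 12 genes of an immediate early gene list, which are induced quickly when cells are stimulated, were higher in knockouts at an unadjusted p below 0.05, and the list's score ran from -1.77 to 0.22 in controls and from 0.47 to 1.5 in knockouts without overlap. The acinar marker sum ran from 32504 to 161492 in controls and from 85526 to 227334 in knockouts, with 1 of 13 markers higher at that level. Of these 13 markers, 0 had a negative log2 fold change, and their median was 0.94. With the acinar score in the fit, the log2 fold change of Kcnh6 was 0.51 (adjusted p = 0.294). Of 10 beta cell markers, 3 were higher at an unadjusted p below 0.05 (Mafa, Nkx6-1 and Pdx1) and 0 were lower. Over all genes tested, 4.34% were higher and 6.34% lower. The log2 fold change was negative for 6 of the 10 markers, Ins1, Ins2 and G6pc2 among them, with a median of -0.10. Their summed level, to which Ins2 and Ins1 gave the most, ran from 4975700 to 6859460 in controls and from 3982080 to 6374400 in knockouts.

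The other Kcnh genes overlapped between the groups. Kcnh2, the ERG channel best known from the heart, had 355 ± 54.6 in controls and 381 ± 41.6 in knockouts (log2 0.11, SE 0.14, adjusted p = 0.827). Kcnh1, the founding EAG channel, varied more between samples of 1 group than between groups, from 489 to 1134 in controls and from 356 to 1114 in knockouts. Kcnh3, Kcnh4, Kcnh5, Kcnh7 and Kcnh8 had log2 fold changes between -0.89 and 0.44.

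The KATP channel of beta cells pairs Kcnj11, its Kir6.2 pore, with Abcc8. On GRCm38 these genes are neighbours on the minus strand of chromosome 7, Kcnj11 at 46093953 to 46100764 and Abcc8 at 46104523 to 46180033, with 3758 bases between them. Kcnj11 had values of 448, 382, 367 and 339 in controls and 263, 331, 315 and 326 in knockouts. The groups did not overlap, although the lowest control and the highest knockout were close. The log2 fold change of Kcnj11 was -0.31 (SE 0.13, 95% interval -0.59 to -0.03, limma, adjusted p = 0.41), from 384 ± 46.5 to 309 ± 31.4 (SD, n = 4). Its unadjusted p was above 0.05 without control 1 (0.0925, adjusted p = 0.675), without control 2 (0.0545, adjusted p = 0.432) and without knockout 1 (0.0969, adjusted p = 0.665). With the acinar score in the fit it was 0.0720 (limma, adjusted p = 0.568).

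Abcc8 had 5507, 5726, 5746 and 6241 in controls and 6006, 5869, 5764 and 7234 in knockouts. The groups overlapped, and knockout 4 stood above the other 7 samples. From 5805 ± 310.1 to 6218 ± 684 (SD, n = 4), the log2 fold change was 0.09 (SE 0.11, 95% interval -0.14 to 0.33, limma, adjusted p = 0.796), and it was 0.02 without knockout 4. Abcc8 was also the member with the smallest spread among controls, a coefficient of variation (SD over mean) of 5.34%.

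**Figure D3:**
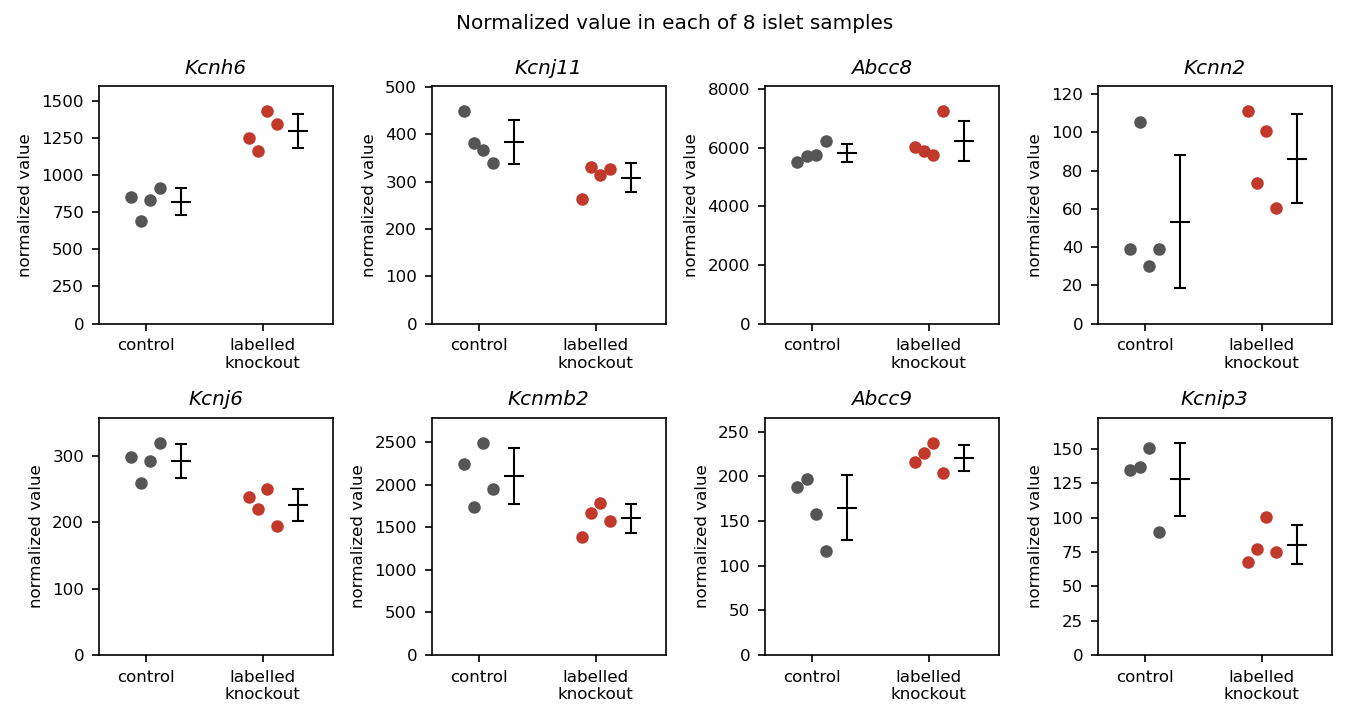
Normalized value (y axis, starting at 0) of 8 members in the 4 control (grey) and 4 knockout (red) samples, numbered 1 to 4 from left to right within a group; the black bar is the mean with its SD. Kcnh6 and Abcc9 have all knockout points above the control points, Kcnj11 and Kcnj6 have them below, and Abcc8, Kcnn2, Kcnmb2 and Kcnip3 overlap.

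Ratios within a sample do not depend on the size factor, and 3 were compared. Abcc8 to Kcnj11 was 12.3, 15, 15.7 and 18.4 in controls and 22.9, 17.7, 18.3 and 22.2 in knockouts, with overlap at control 4. Its log2 difference was 0.41 (exact two-sided permutation test over 70 assignments, p = 0.0857, adjusted over the 3 ratios 0.129), and with 1 sample left out it lay between 0.31 without control 1 (exact p = 0.171) and 0.50 without control 4 (exact p = 0.0286, the smallest that 3 against 4 samples allow). Kcnh6 to Kcnj11 was 1.91, 1.80, 2.26 and 2.69 in controls and 4.75, 3.51, 4.54 and 4.13 in knockouts without overlap. Its log2 difference of 0.98 had an exact permutation p of 0.0286, the smallest that 4 against 4 samples allow, and 0.0857 after adjustment. These ratios repeat the values of the single genes and are not separate evidence.

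**Figure D4:**
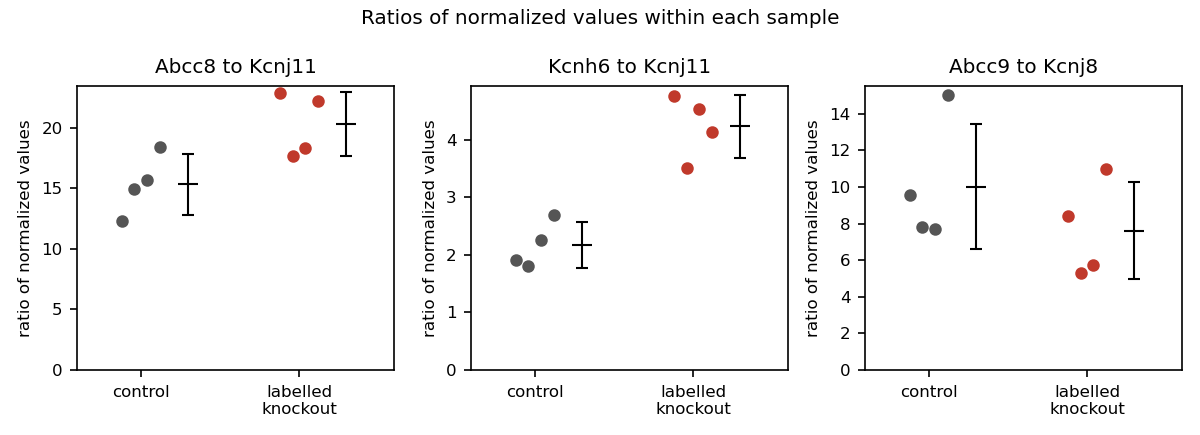
Ratio of normalized values (y axis, not per length) of 3 gene pairs in each control (grey) and knockout (red) sample, with the mean and SD in black. Kcnh6 to Kcnj11 is higher in all 4 knockouts than in any control, and the other ratios overlap between groups.

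The second pair of KATP genes, Kcnj8 for Kir6.1 and Abcc9 for the receptor SUR2, is best known from muscle and vascular mural cells. They too are neighbours, on chromosome 6, with 16247 bases between them. Abcc9 had 188, 197, 158 and 116 in controls and 216, 225, 237 and 203 in knockouts, all knockouts above all controls, with a log2 fold change of 0.44 (SE 0.17, limma, adjusted p = 0.378). Without control 4, its lowest sample, the log2 fold change was 0.29 and the unadjusted p 0.0700 (adjusted p = 0.457), and without knockout 3 they were 0.41 and 0.0561 (adjusted p = 0.519). Kcnj8 was low, at 19.6, 25.3, 20.5 and 7.74 against 25.6, 42.3, 41.3 and 18.5, with overlap, and differed by 0.83 on the log2 scale (SE 0.42, limma, adjusted p = 0.512). Without control 4 the log2 fold change of Kcnj8 was 0.47 and without knockout 4 it was 1.06, with adjusted p of 0.637 and 0.512. The ratio of Abcc9 to Kcnj8 overlapped between the groups (log2 difference -0.40, exact permutation p = 0.286). Of 8 mural cell markers, 0 were higher or lower at an unadjusted p below 0.05, a median of 0.03 on the log2 scale and a summed level from 2157 to 3387 in controls and from 2649 to 3460.4 in knockouts. Of 9 endothelial markers, 2 were higher at that level, Kdr and Egfl7, against 4.34% of all genes tested, and 0 had a negative log2 fold change. The part of these markers in the Abcc9 difference was not tested.

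Among the other inward rectifiers, Kcnj6 was the only gene with an unadjusted p below 0.05. It encodes GIRK2, which opens on signals from inhibitory G-protein-coupled receptors, and it had 299, 259.6, 293 and 319.9 in controls and 238, 221, 249.8 and 195 in knockouts. All knockout values were below the controls, with a log2 fold change of -0.37 (SE 0.13, limma, adjusted p = 0.316). The other GIRK genes listed, Kcnj3 at 102 ± 20.5 and Kcnj5 at 11.4 ± 13.2 in controls, overlapped between groups. Kcnj2, the classical inward rectifier Kir2.1, had 38.6 ± 9.07 in controls and 56.9 ± 31.2 in knockouts, with 100.4 in knockout 3. Kcnj13 and Kcnj14 were listed at 0 in control 3, and the highest value of either was 15.1.

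Of the other voltage-gated pores, Kcnb2 had 331 ± 78.1 in controls and 350.5 ± 79.0 in knockouts (log2 0.08, SE 0.19, adjusted p = 0.907). The Kv7 gene Kcnq1, whose mutations cause long QT syndrome in humans, was near the limit of detection, at 1.33 to 5.08 in controls and 1.81 to 9.55 in knockouts. Kcna3, Kcnc1, Kcnc2, Kcnd1 and Kcnd2 had control means between 13.3 and 63.1 and adjusted p of at least 0.638. The most negative log2 fold change of any member, -1.81 (SE 0.89, limma, adjusted p = 0.503), belonged to Kcna7 (named after its values were seen), which was listed at 0 in knockouts 1 and 3 and had its highest value, 6.56, in control 2.

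Among the silent and auxiliary subunits, which modify other channels, Kcnip3 was the only gene with an unadjusted p below 0.05. Kcnip1 had 1522 ± 285 in controls and 1417 ± 203 in knockouts (log2 -0.09, SE 0.15, adjusted p = 0.866). Kcnip3, a calcium-binding protein also known as the transcriptional repressor DREAM, had 135, 137, 150.3 and 89.6 in controls and 67.9, 77.1, 101 and 75 in knockouts. Control 4 lay within the knockout range, and the log2 fold change was -0.66 (SE 0.20, limma, adjusted p = 0.272). Kcnf1, a silent subunit that modifies other voltage-gated pores, had 1151 in control 1 against 273 to 333 in the other controls and 156 to 542 in knockouts.

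The role named calcium- and sodium-activated channels held 8 genes, without Kcnt1 and Kcnt2. Of these 8, 1 was higher and 1 lower at an unadjusted p below 0.05. Each is 12.5% of the 8, against 4.34% higher and 6.34% lower over all genes tested. Their log2 fold changes were negative in 6 of 8 (55.1% of all genes tested were), with a median of -0.32 against -0.03 over all genes tested. The lower one, Kcnmb2, had 2242, 1741, 2488 and 1946 in controls and 1386, 1670.2, 1789 and 1574 in knockouts, with knockout 3 above control 2, and a log2 fold change of -0.38 (SE 0.13, limma, adjusted p = 0.318). The pore gene Kcnma1 had 1015 ± 169.6 and 814 ± 129 (log2 -0.32, SE 0.15, adjusted p = 0.493). The small-conductance gene Kcnn3 ranged from 916 to 2093 in controls, wider than its range of 981 to 1390.2 in knockouts.

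Kcnn2, another small-conductance channel gene, had 39.1, 105, 30.1 and 38.8 in controls and 111, 73.4, 101 and 60.3 in knockouts. Control 2 lay among the knockouts and the other 3 controls below them. The log2 fold change of Kcnn2 was 0.83 (SE 0.36, limma, adjusted p = 0.448), and it moved from 0.62 without control 3 to 1.22 without control 2. Its unadjusted p stayed below 0.05 only in the fits without control 2 and without knockout 4, of the 8 that left out 1 sample. Kcnn1 had 54.7 ± 26.6 and 38.6 ± 10.3, and since its lines carry identical values under a pair of identifiers and the deposited mean fits their sum, its true level may be higher. The intermediate-conductance gene Kcnn4 had 33.1 ± 9.61 and 28.2 ± 16.0, and its groups overlapped.

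No tandem-pore-domain channel gene differed at an unadjusted p below 0.05. Kcnk16 had 4539, 5918, 6158 and 4952 in knockouts, within the range of its controls, and a log2 fold change of -0.11 (SE 0.16, 95% interval -0.47 to 0.25, adjusted p = 0.849). Kcnk1, the weakly inward rectifying TWIK-1, had 682 ± 74.4 and 607 ± 67.2 (log2 -0.17, SE 0.12, adjusted p = 0.663). Its exons share 8.01% of their bases with an antisense gene, and whether the pseudoalignment used the strand of the reads was not given in the sources used here. Other named members also share exon bases with opposite-strand genes, among them Kcnma1 (5.98%), Kcnk3 (5.76%), Kcnj6 (4.98%), Kcnn2 (4.33% and 3.8%) and Abcc9 (1.89%). Kcnk3, the acid-sensitive TASK-1, had the lowest log2 fold change of the family, -0.46 (SE 0.24, adjusted p = 0.535). Kcnk12, which is also known as THIK-2, had 377 ± 54.1 and 357 ± 51.1.

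The spread between samples is given as the coefficient of variation. Over the 29 members with a control mean above 100, the median coefficient of variation was 20.7% in controls and 15% in knockouts, beside 13.8% and 12.3% over the 9697 genes above the same level, without matching on level or a test. It ran up to 81.1% in controls, for Kcnf1. Control 1 held the highest control value for 16 of the 29 members and knockout 3 the highest knockout value for 14 of 29, beside 45.9% and 44.3% of the 9697 genes.

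Genes that work with these channels gave the electrical surroundings. Of 6 genes of glucose entry and metabolism, 0 were higher and 1 was lower at an unadjusted p below 0.05, Pcx, which encodes pyruvate carboxylase. Of 22 calcium and sodium channel genes, 1 was higher (Cacna1b) and 2 were lower (Cacna2d2 and Cacnb3). Over all genes tested, 4.34% were higher and 6.34% lower at this level. Negative log2 fold changes were seen for 6 of 6 metabolism genes and 15 of 22 channel genes, against 55.1% of all genes tested. The L-type calcium pores Cacna1c, at 1676 ± 214 and 1471 ± 155, and Cacna1d, at 2781 ± 306 and 2798 ± 644, overlapped between groups. None of these genes passed the adjusted threshold.

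Of 14 genes of background cation and anion conductances, 0 were higher and 3 were lower, among them Clcn3 and Hcn4. Hcn4, a pacemaker channel that opens on hyperpolarization, had 824, 790.2, 1104 and 751 in controls and 401, 534, 591 and 485 in knockouts without overlap, a log2 fold change of -0.78 (SE 0.15, limma, adjusted p = 0.0979). Of 9 subunit genes of the sodium-potassium pump, which builds the potassium gradient, 0 were higher and 2 were lower, among them Atp1b3 (log2 -0.28, SE 0.13, adjusted p = 0.465). Of 14 genes whose proteins bind or regulate potassium channels, 0 were higher and 3 were lower, Cask, Dpp6 and Rapgef4. The shares of all genes tested at this level were 4.34% higher and 6.34% lower. Negative log2 fold changes were seen for 8 of 14 conductance genes, 3 of 9 pump genes and 11 of 14 partner genes.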

How the data were processed

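Islet RNA of 8 mice was sequenced by the authors from stranded KAPA libraries, trimmed with cutadapt (1.13) and pseudoaligned with kallisto (0.46.1) against the Ensembl transcriptome of GRCm38. The deposited table holds 1 normalized signal per gene and library, which the authors made in sleuth by dividing estimated reads by a size factor, with no correction for length. Reads shared by similar genes are divided between them. Deposited columns of other terms (sleuth's variance terms, natural log scale) entered only the Wald rule, a normal test of the group difference on the ln scale. The authors' own fold changes, p-values and q-values were not used.

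The table has 16684 lines, 16208 identifiers and 15985 symbols. Repeated lines were dropped and distinct identifiers of 62 symbols were summed. The sample labels gave the groups and the replicate numbers. Genes exceeding 1 in 4 or more libraries were tested as log2(value + 0.5) with limma (3.58.1, R 4.3.3; trended and robust prior, two-sided, Benjamini-Hochberg adjustment over 15960 genes, threshold 0.05). Fold changes are on that scale, which understates changes of low genes. Scores of marker lists are means of log2 values that were centred gene by gene over the 8 libraries. Depth was estimated from the step between low values, of which 63.4% to 72.1% per library lay within 0.05 reads of a whole number. No count test was run. Lengths and positions came from GENCODE M21, promoters from RefSeq. The limma fit was tested on simulated data.

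Named members were Kcnj11, Abcc8, Kcnh6, Kcnj8 and Abcc9, the 15 highest per kb in controls, up to 10 per direction with an unadjusted p below 0.05, and a list of genes known from islet electrical activity, 30 in all; some genes are not reported here, although they are counted, and any other member named was chosen after its values were seen. Members, lists and tests were chosen with earlier results of these data known. Alternatives were other pseudocounts, filters, priors and scalings, an acinar covariate, a replicate block, the Wald rule, other lengths and leaving out each sample. Transcripts were not analysed here.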

Additional observations from a re-analysis of the deposited data

Results flagged for a closer look

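Within groups of 4 samples, 1 sample stood far from the other 3 in 6 of 60 groups screened (30 named members in each group). The cutoff is set for about 1 in 20 where values are independent and normal, which was not checked here. Members share the same libraries, and the share over all genes was not computed, so the count is not a result about the members. Control 1 was apart for Kcnf1 (1151, the next being 333). Control 2 was apart for Kcnn2 (105, the next 39.1). Knockout 3 was apart for Kcnb2 (469, the next 317) and for Kcnc1 (24.7, the next 8.45). Knockout 1 was apart for Kcnq1 (9.55, the next 2.66), and knockout 4 for Abcc8 (7234, the next 6006). In each case the sample apart was the highest of its group.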

How the results depend on the processing

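The 9 fold changes examined kept their sign in all 162 alternative values, and the side of the adjusted threshold held in 160. The 2 exceptions were Kcnh6 with quantile normalization (log2 0.74, adjusted p = 0.0440) and under the Wald rule (log2 0.66, adjusted p = 4.5e-05), so that the count of members past the threshold was 1 under those settings and 0 in the main fit. Leaving out 1 sample at a time gave between 1 and 4 members higher and between 4 and 8 lower at an unadjusted p below 0.05. The same fits gave between 558 and 838 of all genes higher and between 636 and 1239 lower. The log2 difference of the Abcc8 to Kcnj11 ratio lay between 0.31 and 0.50. Over all genes, adjusted calls ranged from 1 to 58 when 1 sample was left out (58 without control 2) against 9, and were 14 with a pseudocount of 1, 17 with quantile normalization, 4 with upper quartile scaling, 3 with the acinar covariate and 189 under the Wald rule. Scaling moved the split at an unadjusted p below 0.05 from 693 higher and 1012 lower to 1000 and 774 with upper quartile scaling and to 829 and 908 with quantile normalization, with 3 and 5 and with 2 and 6 members. The replicate numbers do not pair the samples (correlations of same-numbered deviations -0.16, -0.03, -0.12 and 0.07). With a replicate block, Kcnh6 stayed at log2 0.66 (adjusted p = 0.140), 4 members were higher and 6 lower at an unadjusted p below 0.05 (Kcnj8 gained this call with p = 0.0334, adjusted p = 0.551, and Kcnj11 lost it with p = 0.0744, adjusted p = 0.642), and 3 of all genes passed the adjusted threshold; the paired test of the Abcc8 to Kcnj11 ratio gave an exact p of 0.125. That exact p of the paired test is the smallest that 4 pairs allow, so the test could not fall below 0.05. Matched by replicate number, each knockout had the higher Abcc8 to Kcnj11 ratio, but these numbers do not pair the samples. Control 4 (18.4) lay above knockout 2 (17.7) and knockout 3 (18.3). Depth limits members with values below about 10, where 1 read is worth up to 1.37.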
